A study of Mus musculus with 29 samples.

Results

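Satellite repeat transcripts are represented here by 10 predicted mouse genes, Gm10800, Gm10801, Gm10715, Gm10717, Gm10718, Gm10719, Gm10720, Gm10721, Gm10722 and Gm17535, out of 38924 genes counted in LSK cells. The genes were matched by Ensembl identifier, and all 10 were found in the LSK table. They had been picked for their measured difference between the LSK groups compared below, so their values in that comparison are a description and carry no test. LSK cells are lineage-negative, Sca-1-positive, Kit-positive bone marrow cells, the fraction that holds blood stem and early progenitor cells. The LSK cells were sorted after transplantation, from a Wnt5a-haploinsufficient niche (5 libraries, called Wnt5a) or from a wild-type niche (6 libraries, called WT), and all were sequenced by Smart-seq2, a full-length method without molecular identifiers. A further 18 libraries came from the niche itself, with 3 Wnt5a and 3 WT libraries each of endothelial (EC), osteoblastic (OBC) and mesenchymal (MSC) cells, counted as unique molecular identifiers (UMIs). The strain of every group was 129Ly5.1, and the genotype given is that of the niche. Neither the Wnt5a allele, the genotype of the transplanted cells, the ages nor the number of animals behind a library is given in the sources used here, so the p-values below measure the spread between these libraries, which may be technical. Library numbers within the LSK groups only name the samples.

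Major satellite DNA forms long, A/T-rich tandem arrays beside the centromeres of mouse chromosomes. The arrays are normally packed as constitutive heterochromatin: SUV39H enzymes methylate the histones, HP1 proteins bind them and DNMT1 keeps the DNA methylated. Transcription from the arrays is low in most adult cells, and higher levels are known from early embryos, from cycling cells and from cells that lose this packing.

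The genes lie at 2 places in the GRCm38 genome, in the GENCODE vM21 annotation. Gm10801 (chr2:98662237-98664083, plus strand) and Gm10800 (chr2:98666547-98667301, minus strand) are neighbours on chromosome 2. The other 8 lie in a row on the plus strand of chromosome 9, between Gm10722 at the start (chr9:3000922-3002330) and Gm10715 at the end (chr9:3036877-3038316). All 10 are annotated as protein-coding, each with 1 to 9 transcripts of 504 to 684 bases, and their G+C content was 34.2 to 36.0%. The first exon of a Gm10717 transcript (chr9:3025417-3025968, 552 bases) was compared with itself at each shift of 20 to 300 bases. At a shift of 234 bases, 82.7% of its bases were identical, against a median of 31% over the 281 shifts. A length of 234 bases is the repeat unit by which the mouse major satellite is known. Smaller peaks stood at 58 bases (60.3%), 116 bases (55.5%) and 292 bases (61.5%), so the unit itself is built of shorter related stretches.

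**Figure D1:**
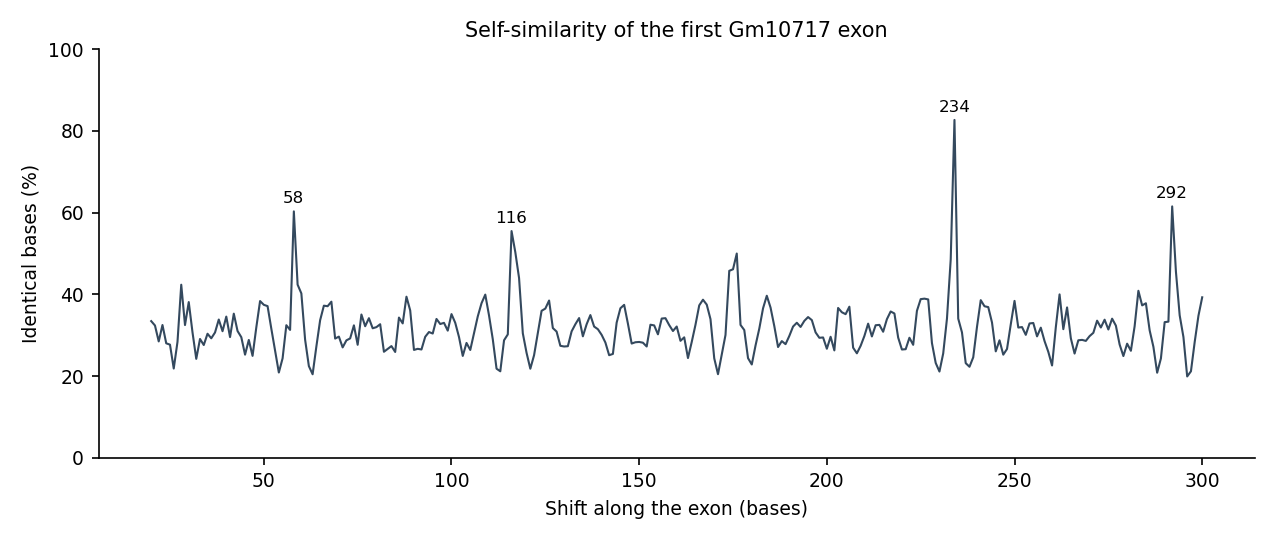
Percentage of identical bases (y axis) when the 552-base first exon of Gm10717 is laid over itself at each shift from 20 to 300 bases (x axis). The line peaks at 234 bases (82.7% identical), with smaller peaks at 58, 116 and 292 bases.

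A full unit from each of the 2 chromosomes is shown to let the repeats be compared by eye, both written 5′ to 3′ in the sense of the transcript. In the Gm10717 unit (chr9:3025660-3025893, plus strand) the capitals mark the longest run of bases found in all 10 genes. In the Gm10800 unit (chr2:98666807-98667040, minus strand) the capitals mark the bases that differ from the Gm10717 unit.
Gm10717: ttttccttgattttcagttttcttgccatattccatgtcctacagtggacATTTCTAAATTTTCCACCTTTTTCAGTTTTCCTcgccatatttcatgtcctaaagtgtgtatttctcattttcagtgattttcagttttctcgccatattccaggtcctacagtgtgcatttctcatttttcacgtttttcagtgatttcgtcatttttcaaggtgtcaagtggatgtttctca
Gm10800: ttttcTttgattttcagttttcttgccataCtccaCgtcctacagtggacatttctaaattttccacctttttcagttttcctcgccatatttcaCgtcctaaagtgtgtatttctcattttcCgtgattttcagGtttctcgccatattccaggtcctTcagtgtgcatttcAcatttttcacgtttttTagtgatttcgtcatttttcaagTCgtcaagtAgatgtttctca
The units differed at 12 of 234 bases and were 94.9% identical. This is a best match: the Gm10717 unit was taken as the stretch closest to the Gm10800 unit, past the first 234 bases of the exon. The shared run is 33 bases long and starts at base 51 of both units. It was present in 14 of the 21 transcripts of the 10 genes, and in 2 further genes among all 141767 annotated transcripts.

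How far a read can be told apart between these genes was described by the 31-base words of their transcripts. Gm10720 shared 94.4% of its words with other genes of the group, Gm17535 92.1% and Gm10721 89.3%, whereas Gm10801 shared 36.2% and Gm10800 42.0%. The closest pair was Gm17535 with Gm10717, which holds 89.8% of the words of Gm17535. Beyond the group, 3 annotated genes shared any word with it. Gm11168, on the same stretch of chromosome 9, shared 64.4% of its words, and Gm21738 on chromosome 14 shared 43.6%. Gm21738 has an exon of exactly 234 bases, 94.9% identical to the closest 234-base stretch of the first Gm10717 exon. Gm26870, a long noncoding RNA on the minus strand over the whole chromosome 9 stretch (chr9:3000282-3038313), shared 71.3% of its words, all on the opposite strand. In addition, 12.1 to 42.9% of the exon bases of Gm10719, Gm10718, Gm10715, Gm10721 and Gm17535 overlap exons of another gene. How reads matching several genes were counted, and whether strand was used, is not given in the sources used here. Values of single genes are therefore uncertain, and the sum over the group is given first.

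Reads assigned to genes numbered 1573560 to 3690114 per Wnt5a LSK library and 1254553 to 5775459 per WT LSK library. All 9 LSK markers were detected in both groups, with 2608 to 3296 summed CPM (counts per 1000000) in Wnt5a and 2767 to 3638 in WT. The 13 lineage markers summed to 154 to 521 CPM in Wnt5a and 192 to 302 CPM in WT. Niche libraries held 10635 to 117989 UMIs each. The MSC libraries held mesenchymal markers (1289 to 5250 CPM in Wnt5a, 2088 to 2816 CPM in WT, 4 genes) and also endothelial markers (3051 to 4600 CPM in Wnt5a, 4959 to 5890 CPM in WT), which summed to 5167 to 8737 CPM in EC Wnt5a and 3256 to 6390 CPM in EC WT. Osteoblastic markers (4 genes) summed to 656 to 2446 CPM in OBC Wnt5a and 2633 to 7054 CPM in OBC WT, with no overlap.

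The 10 genes together took more of the reads in LSK cells from the Wnt5a niche. Their share of gene-assigned reads was 5.08%, 1.36%, 2.29%, 0.966% and 0.258% in Wnt5a libraries 1 to 5, against a lowest of 0.0630%, a median of 0.140% and a highest of 0.320% in the WT libraries. Wnt5a libraries 1 to 4 lay above every WT library, and Wnt5a library 5 lay inside the WT range. Counting error was small beside this spread, with exact (Clopper-Pearson) 95% binomial intervals of 5.05 to 5.10% for Wnt5a library 1 and 0.0603 to 0.0657% for WT library 4, the lowest. These intervals cover counting error only, since reads copied by PCR are not independent molecules.

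The mean share was 1.99 ± 1.87% in Wnt5a (SD, n = 5) and 0.166 ± 0.0976% in WT (SD, n = 6), a ratio of means of 12 and of medians of 9.73. Within a group the libraries also differed widely, by 19.7-fold between the highest and lowest Wnt5a library and 5.08-fold between the highest and lowest WT library. Wnt5a library 1 weighed heavily: without it the Wnt5a mean was 1.22 ± 0.847% (SD, n = 4) and the ratio of means 7.33. The label numbers have 4 digits in Wnt5a libraries 1 to 3 and in all 6 WT libraries, and 3 digits in Wnt5a libraries 4 and 5, and what they stand for is not given. Among the 4-digit libraries the difference of means was 2.74 percentage points, against 1.82 over all 11, and the 3-digit libraries hold no WT sample. In libraries of many cells, a larger share cannot be told apart as more RNA per cell or more cells that express it. Whether all of these reads came from RNA was not tested either.

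**Figure D2:**
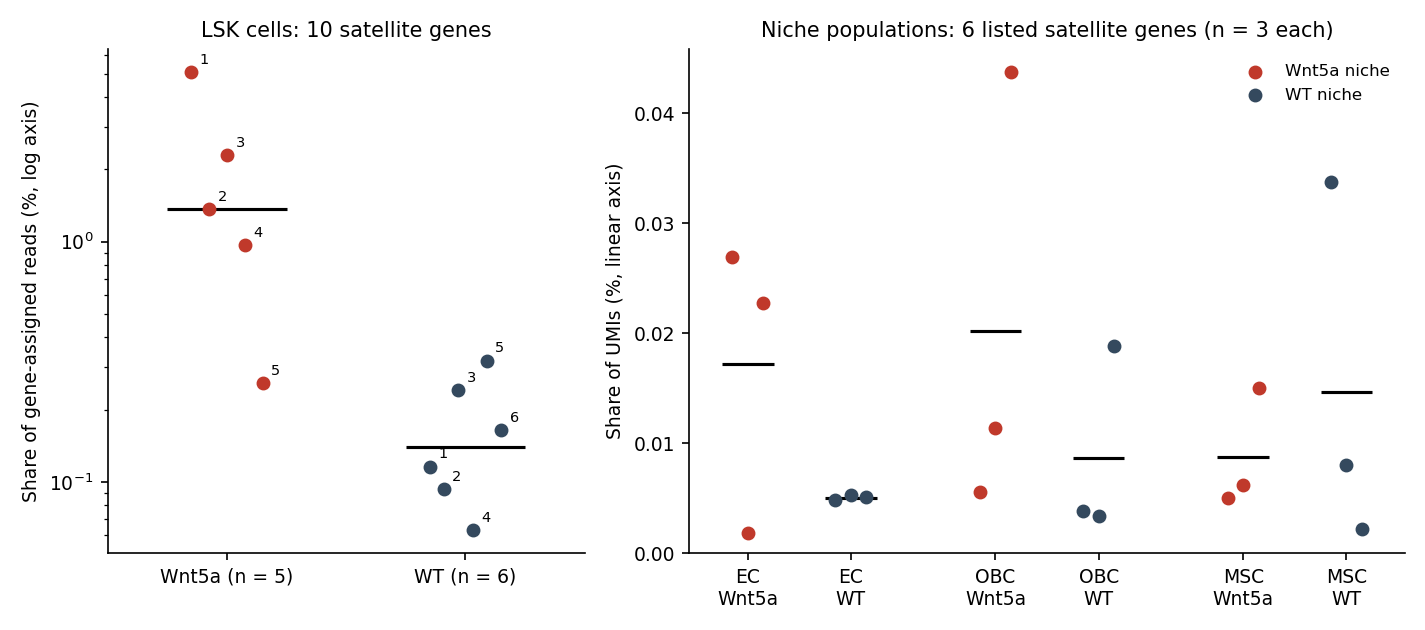
Left, share of gene-assigned reads taken by the 10 satellite genes (percent, log axis) in each LSK library, with Wnt5a (n = 5) before WT (n = 6), the library number beside each point and a line at the median (1.36% and 0.140%). Right, share of UMIs taken by the 6 satellite genes listed in the niche table (percent, linear axis from 0) in each EC, OBC and MSC library, with a line at the mean of 3 libraries. In LSK cells 4 of 5 Wnt5a libraries lie above the highest WT library, and in all 3 niche populations the groups overlap.

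Most of the satellite reads were assigned to the pair on chromosome 2. Whether they arose there or at other copies of the repeat was not tested. Gm10800 stood at 44422, 12072, 20335, 8657 and 2279 RPKM (reads per kilobase of exon and per 1000000 gene-assigned reads) in Wnt5a libraries 1 to 5, against a lowest of 571, a median of 1251 and a highest of 2889 in WT. Behind these levels were 86326, 29400, 22978, 8991 and 3818 reads in Wnt5a and 860 to 8189 reads in WT. On the same scale Gm10801 stood at 19058, 5239, 8870, 3850 and 991 in Wnt5a libraries 1 to 5, against a lowest of 267, a median of 566 and a highest of 1209 in WT. For both genes, Wnt5a libraries 1 to 4 exceeded all WT libraries and Wnt5a library 5 was inside the WT range.

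On chromosome 9 the first gene of the row, Gm10722, was the highest. Its level was 8663, 2220, 3685, 1507 and 420 RPKM in Wnt5a libraries 1 to 5, against a lowest of 85.8, a median of 205 and a highest of 495 in WT. Gm10719 reached 1105, 305, 507, 206 and 63.9 in Wnt5a libraries 1 to 5, against 14.4 to 78.2 in WT with a median of 37.5. Medians for Gm10718 were 253 in Wnt5a and 21.3 in WT, and for Gm10717, the longest of the group in exon bases, 181 in Wnt5a and 16.6 in WT. For all 4 genes Wnt5a library 5 was the one Wnt5a library inside the WT range.

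The remaining 4 genes of the row had few reads. Gm10720 had a median of 109 RPKM in Wnt5a and 7.91 in WT, and Gm17535 had 85.9 in Wnt5a and 7.45 in WT. Gm10715 had 326, 93, 82, 35 and 13 reads in Wnt5a libraries 1 to 5 and 3 to 15 reads in the WT libraries. Scaled to library size and length, all 5 Wnt5a libraries lay above all WT libraries for this gene, by a narrow margin of 5.48 for Wnt5a library 5 against 4.78 for the highest WT library. Gm10721 had 88, 41, 22, 7 and 4 reads in Wnt5a libraries 1 to 5, and 0, 0, 8, 0, 4 and 3 reads in WT libraries 1 to 6. A count of 0 allowed a share of up to 0.000239%, 0.000132% and 8.96e-05% in the 3 WT libraries concerned. In the order of median levels in Wnt5a, Gm10800, Gm10801, Gm10722, Gm10719, Gm10718, Gm10717, Gm10720, Gm17535, Gm10715 and Gm10721, the ranges of neighbours overlapped. The order was the same within Wnt5a libraries 1, 2, 3 and 5, and in library 4 Gm17535 (63.4 RPKM) stood above Gm10720 (57.0 RPKM).

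**Figure D3:**
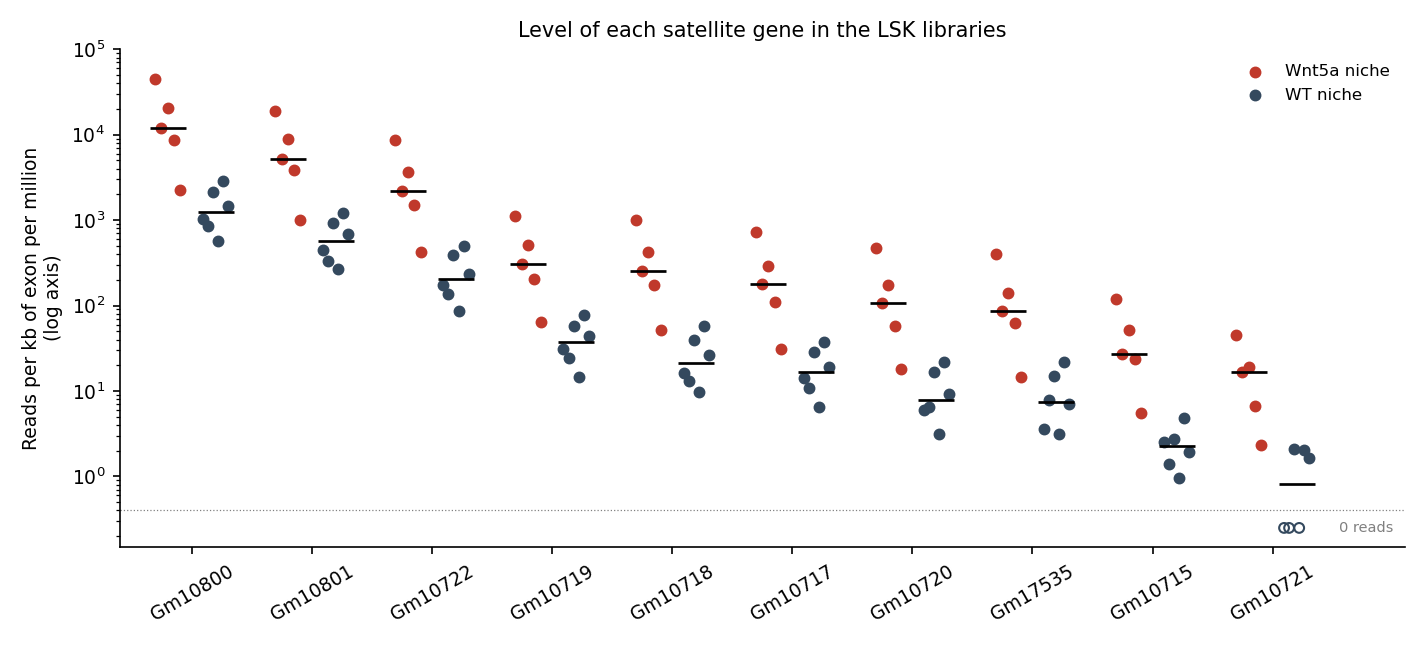
Level of each satellite gene (RPKM, reads per kilobase of exon and per 1000000 reads, log axis) in each LSK library, Wnt5a left of WT within each gene, with a line at the median and genes ordered by their median in Wnt5a. Open circles below the dotted line are the 3 WT libraries with 0 reads of Gm10721, and for 8 of 10 genes the lowest Wnt5a point lies inside the WT range.

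In the model of all genes (edgeR's quasi-likelihood fit), 9 of the 10 genes passed the low-count filter and Gm10721 did not. Their log2 fold changes, Wnt5a over WT, ran from 3.54 (SE 0.672) for Gm10719 to 4.35 (SE 0.637) for Gm10715, with a median of 3.93 against 0.02 over all 13098 genes tested. Gm10800 and Gm10801 each had 3.71 (SE 0.668 and 0.677). Past an adjusted p of 0.05 stood 1 of the 9, Gm10715, against 0.0229% of all genes tested. The other 2 genes past it were Sephs2, a selenophosphate synthetase, with 1.94 ± 0.769 CPM in Wnt5a and 25.2 ± 16.9 CPM in WT, and Ap2b1, a subunit of the clathrin adaptor AP-2, with 36.8 ± 7.03 CPM in Wnt5a and 91.6 ± 8.36 CPM in WT (SD, n = 5 and 6; edgeR adjusted p = 0.0272 and 0.0451). All 9 fold changes stood between 2.89 and 4.85 under every alternative and left-out library that was run. How many of the genes passed the threshold did not hold still: it was 10 of 10 among the 4-digit libraries, where 3.06% of all genes were called higher, 10 of 10 without Wnt5a library 5 (4.45% of all genes), and 9 of 9 with DESeq2 (3.09%). It was 3 of 9 without Wnt5a library 1 (0.12% of all genes called) and 2 of 10 with no filter (1.13%). The count was 1 of 9, Gm10715 alone, with RLE scaling (3 of all 13098 genes called) or without WT library 5 (2 of 12844). With limma voom, and without any one of Wnt5a libraries 2 to 4 or WT libraries 1 to 4 and 6, it was 0 of 9, Gm10715 included, and 0 of all genes tested. Because the genes were picked on this contrast, these counts are given beside their backgrounds and nothing is read from them.

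Whether the groups overlapped depended on scaling. Scaled to library size alone, 2 of 10 genes had all 5 Wnt5a libraries above all 6 WT libraries, against 0.398% of the 30413 genes with a read. With trimmed-mean (TMM) scaling, whose factors were 0.850 to 1.001 in Wnt5a and 1.004 to 1.11 in WT, it was 7 of the 9 genes that passed the filter, against 1.26% of all genes. The summed share on that scale was 0.288% in Wnt5a library 5 and 0.291% in the highest WT library.

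The 10 genes moved as a block. Over the 11 LSK libraries, the Pearson r of log2(CPM + 1) between any 2 of them was at least 0.972, with a median of 0.99 over 45 pairs. This is a description of libraries that share depth and group. The genes were picked for the same difference between the groups and share sequence, so a high r was largely fixed in advance. No shared regulation is read from it. The share of the most abundant genes among the satellite reads also varied little, and it depends on how reads matching several genes were assigned. Gm10800 took 57.8 to 61.0% of the satellite reads in each library, Gm10801 18.2 to 21.4%, Gm10722 8.87 to 11.1%, Gm10717 3.94 to 5.51% and Gm10719 3.84 to 4.89%, while each of the other 5 stayed at or below 1.38%. Among those 5, Gm17535 ran from 0.207 to 0.567%, Gm10715 from 0.108 to 0.230% and Gm10721 from 0 to 0.0815%. The chromosome 2 pair together took 76.7 to 79.3% in Wnt5a and 78.5 to 81.2% in WT.

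Differences within the block were not tested. The share of Gm10722 among satellite reads was 10.6 ± 0.341% in Wnt5a (SD, n = 5) and 9.70 ± 0.559% in WT (SD, n = 6), and that of Gm10800 was 58.5 ± 0.514% in Wnt5a and 59.5 ± 0.826% in WT. Of the genes with few reads, Gm10715 took 0.208 ± 0.0175% in Wnt5a and 0.141 ± 0.0356% in WT. Gm10721 took 0.0608 ± 0.0129% in Wnt5a and 0.0278 ± 0.0313% in WT. The mean share was lower in Wnt5a for Gm10800, Gm10801 and Gm10719, and higher for the rest. For none of the 10 genes did these shares separate the groups. The ratio of Gm10717 to Gm10719 reads, a pair named after its values were seen, was 1.41, 1.27, 1.22, 1.14 and 1.04 in Wnt5a libraries 1 to 5, against 0.931 to 1.05 in WT. The ratio was above every WT library in Wnt5a libraries 1 to 4. The number of words that a gene holds alone, from 28 in Gm10720 to 859 in Gm10717, ran loosely with its reads (Spearman rho = 0.685 over the 10 genes, a description).

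**Figure D4:**
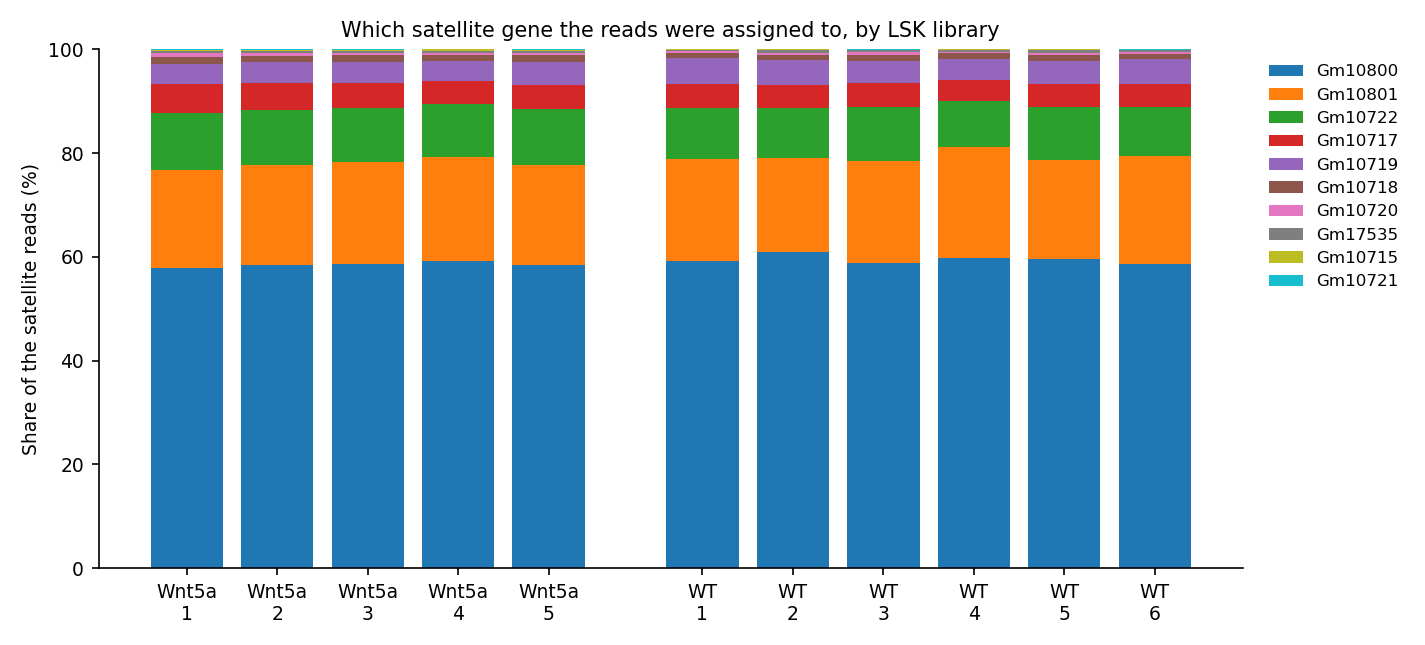
Stacked bars of the share of satellite reads (percent, y axis from 0 to 100) assigned to each of the 10 genes in each LSK library, with the 5 Wnt5a libraries left of the 6 WT libraries. The bars are nearly alike, with Gm10800 at 57.8 to 61.0% in every library, although the satellite reads themselves numbered 6539 to 149464 in Wnt5a and 1452 to 13912 in WT.

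The genes outside the group that share its sequence followed it. Gm21738 on chromosome 14 had 18178, 6228, 4944, 1936 and 844 reads in Wnt5a libraries 1 to 5, against 158 to 1687 reads in WT, and its fitted log2 difference was 3.78 (SE 0.689; edgeR adjusted p = 0.0564). The neighbours on chromosome 9 had log2 fold changes of 3.96 (SE 0.754) for Gm11168 and 3.82 (SE 0.682) for the opposite-strand Gm26870, at edgeR adjusted p = 0.0608 and 0.0564. These values missed the threshold of 0.05, and reads of these 3 genes cannot be told apart with certainty from those of the group.

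Among the 13087 genes that passed the filter, leaving out the group and its neighbours Gm11168 and Gm26870, Gm21738 was the one whose level was most like that of the summed group (Pearson r of log2(CPM + 1) = 0.9996 over 11 libraries). The next 7 were H2afy2 (0.952), a macro histone variant of silent chromatin, 9930104L06Rik (0.9496), Sec24d (0.947), a coat protein of transport vesicles leaving the endoplasmic reticulum, Pcnx3 (0.940), Irf2bp2 (0.938), a transcriptional corepressor, the annotated miRNA gene Gm23493 (0.938) and Fyn (0.937), a Src-family kinase. In all, 32 genes had an r above 0.9, and the median over all genes was -0.04. H2afy2 stood at 9.26 to 35.5 CPM in Wnt5a and 5.47 to 13.5 CPM in WT, a log2 difference of 1.61 (SE 0.418) that missed the threshold (edgeR adjusted p = 0.0904). Within the 6 WT libraries alone, the r was 0.997 for Gm21738, 0.804 for H2afy2 and 0.307 for Irf2bp2. These correlations are descriptions over libraries that share depth and group. With Spearman's rho in place of r, 4 of the 8 were again among the top 8.

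Other measures of the LSK libraries are given beside the satellite share, and only some of them ran with it. Olfactory and vomeronasal receptor genes took 0.0353%, 0.0146%, 0.0180%, 0.00572% and 0.00603% of reads in Wnt5a libraries 1 to 5, against 0.00271 to 0.00854% in WT. The 3 libraries with the highest satellite share thus also had the highest receptor share. Mitochondrial transcripts took 3.35%, 5.89%, 4.09%, 8.96% and 2.54% in Wnt5a libraries 1 to 5, against 1.77 to 3.39% in WT. The number of genes with a read was 24603, 21007, 19885, 16341 and 17713 in Wnt5a libraries 1 to 5, against 16583 to 20717 in WT. This number was highest in the library with the most satellite reads and lowest of all LSK libraries in Wnt5a library 4. Immunoglobulin genes took 10.2% of the reads of Wnt5a library 5, against 0.360 to 1.34% in the other 4 Wnt5a libraries and 0.312 to 2.51% in WT. Genes listed for overlap with ribosomal RNA took 0.0507 to 0.0942% in Wnt5a and 0.0486 to 0.407% in WT. Haemoglobin genes took 0.0266 to 0.113% in Wnt5a and 0.0256 to 0.0761% in WT. The part of these measures in the satellite difference was not tested. With mitochondrial genes left out of the total, the difference in satellite share was 1.91 percentage points, against 1.82 with them.

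**Figure D5:**
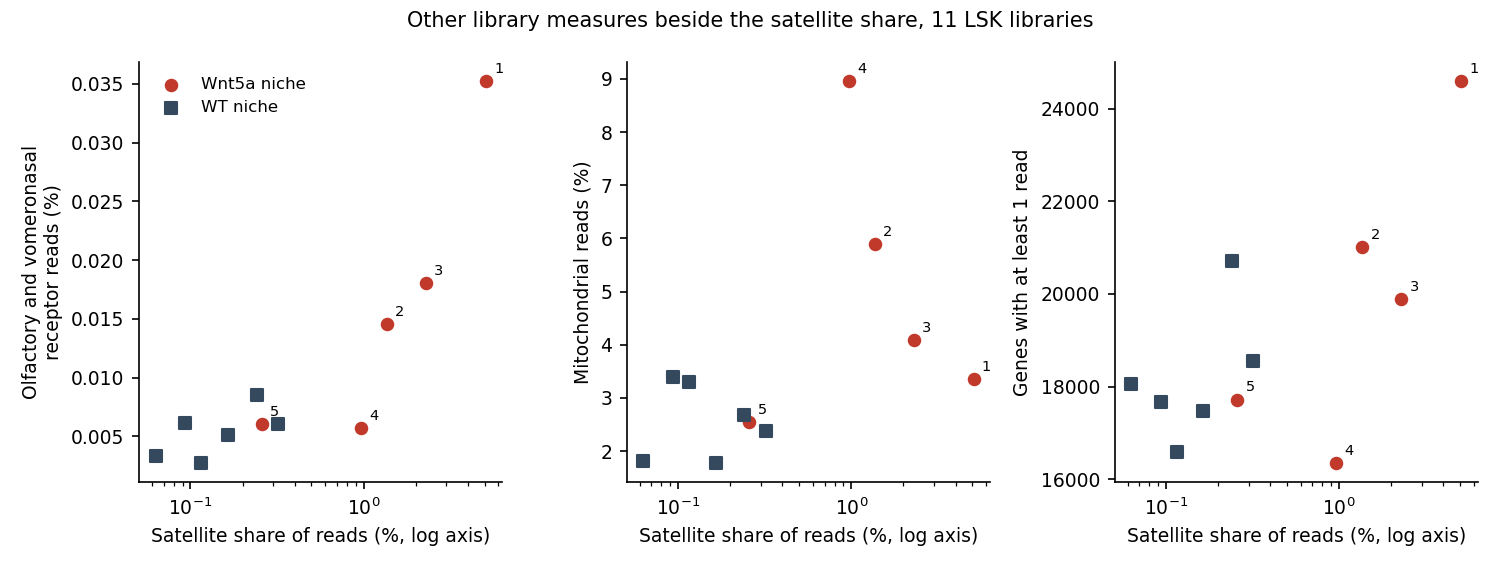
For each of the 11 LSK libraries, the satellite share of reads (percent, log x axis) against the share of olfactory and vomeronasal receptor genes (left, percent), the share of mitochondrial transcripts (middle, percent) and the number of genes with at least 1 read (right). Circles are Wnt5a libraries with their numbers, squares WT libraries. Wnt5a library 1 has the highest satellite share (5.08%), receptor share (0.0353%) and gene count (24603), and Wnt5a library 4 the highest mitochondrial share (8.96%).

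The machinery that packs satellite chromatin was followed with a list of 51 genes, which holds histone and DNA methyltransferases, HP1 proteins, silencing complexes, histone chaperones and centromere proteins. Of these, 50 passed the filter, and 0 passed the edgeR threshold between Wnt5a and WT in either direction, as did 0 with limma voom and 5 with DESeq2, which called 5.18% of all genes. At an unadjusted edgeR p under 0.05 stood 10 of 50, or 20%, beside 18.4% of all genes tested. The median log2 fold change of the list was 0.25, with 34 positive and 16 negative values, and that of all genes was 0.02.

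The 6 genes with the smallest p all had higher means in Wnt5a. Dnmt1, the methyltransferase that copies DNA methylation after replication, averaged 304 ± 95 CPM in Wnt5a and 153 ± 34.3 CPM in WT (SD, n = 5 and 6; log2 fold change 0.99, SE 0.226, edgeR adjusted p = 0.0608). Cenpc1, an inner kinetochore protein, averaged 111 ± 24.0 CPM in Wnt5a and 58.3 ± 8.08 CPM in WT (0.92, SE 0.209, edgeR adjusted p = 0.0608). All its Wnt5a libraries lay above all WT libraries, as for 1.26% of all 13098 genes tested. The same held for Pphln1, by a narrow margin of 119 CPM in the lowest Wnt5a library against 117.7 CPM in the highest WT library. Cenpb, which binds a motif in centromeric minor satellite DNA, averaged 149 ± 65.1 CPM in Wnt5a and 60.1 ± 29.6 CPM in WT (1.32, SE 0.370, edgeR adjusted p = 0.0999). Cbx1, the HP1 beta protein, averaged 228 ± 72.8 CPM in Wnt5a and 138 ± 16.9 CPM in WT (0.72, SE 0.205, edgeR adjusted p = 0.102). Pphln1, a subunit of the HUSH silencing complex, differed by 0.64 on the log2 scale (SE 0.18, edgeR adjusted p = 0.0996) and the deacetylase gene Sirt1 by 0.77 (SE 0.246, edgeR adjusted p = 0.130). Dnmt1, Cenpc1, Cenpb, Cbx1 and Pphln1 passed the threshold with DESeq2, among the 4-digit libraries and without Wnt5a library 5. Chaf1b, a chromatin assembly factor subunit, was called lower among the 4-digit libraries, where 6.34% of all genes were called, and without Wnt5a library 5, where 8.32% were. With any one of the other 10 libraries left out, 0 of the list were called.

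The niche libraries gave measurements of the same genes that had no part in their choice. Of the 10 genes, 6 are listed in the niche table, with 59 UMIs in all for Gm10800, 14 for Gm10801, 5 for Gm10717, 1 each for Gm10718 and Gm10722, and 0 for Gm10720. The last count allows a share of up to 0.000356% over the 842698 UMIs of the 18 libraries. Gm10800 had a UMI in 17 of 18 libraries and Gm10801 in 10. The opposite-strand Gm26870 had 50 UMIs, in 17 of 18 libraries.

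The satellite share was not found to differ between Wnt5a and WT in the niche. In EC it averaged 0.0172 ± 0.0134% in Wnt5a and 0.00505 ± 0.000226% in WT (SD, n = 3 each; exact two-sided permutation p = 0.4). Individual EC shares were 0.0270%, 0.00187% and 0.0228% in Wnt5a and 0.00480%, 0.00525% and 0.00509% in WT, so 1 Wnt5a library lay below all WT libraries. In OBC it averaged 0.0202 ± 0.0205% in Wnt5a and 0.00867 ± 0.00879% in WT (n = 3 each; permutation test, exact p = 0.5). In MSC it averaged 0.00875 ± 0.00548% in Wnt5a and 0.0147 ± 0.0168% in WT (n = 3 each; permutation test, exact p = 0.8). Benjamini-Hochberg adjustment of these exact permutation values over the 3 populations gave 0.75, 0.75 and 0.8, and a design of 3 against 3 cannot go below p = 0.1. Over the mean of the 3 differences, 0.00594 percentage points, labels exchanged within populations gave an exact two-sided permutation p = 0.355. The smallest possible value is 0.00025 if libraries of different populations are independent, as this test takes them to be. Whether they share animals is not given, and if they do, fewer regroupings apply and the smallest possible value is larger. The shares rest on 1 to 17 UMIs per library. The part of the lower osteoblastic marker level of the OBC Wnt5a libraries in the OBC values was not tested.

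None of the genes passed the low-count filter of the niche model. Without the filter 5 were tested and 0 called by edgeR in the mean of EC, OBC and MSC, against 0.0879% of all genes. Gm10800 then had a log2 fold change of 0.21 (SE 0.523) and Gm10801 one of 1.98 (SE 1.1; edgeR adjusted p = 0.9999 and 0.984). Gm10801 had 10 UMIs over the Wnt5a libraries and 4 over the WT libraries. The LSK and niche shares come from different library methods and are not compared.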

How the data were processed

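For LSK cells the authors deposited unnormalized Smart-seq2 read counts by Ensembl gene, and for the niche they deposited UMI counts by gene, per the labels. STAR and featureCounts on mm10 (GRCm38) are named without versions or settings in the submitters' processing notes. For annotation release, strand use and multiply matching reads, settings were not given in the sources used here. Counts assigned to satellite genes depend on those settings.

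Symbols came from GENCODE vM21, which matched 37607 of 38924 LSK identifiers and 17973 of 18194 niche identifiers. The 28 spike-in entries were kept out of totals and tests, and 0 columns of values were left unused. A share is the counts of the satellite genes over all gene counts of a library.

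LSK groups were compared with edgeR 4.0.16 (R 4.3.3; TMM scaling, a low-count filter with minimum counts of 10 per gene and 15 in total, quasi-likelihood test, Benjamini-Hochberg adjustment over all genes tested, threshold 0.05). The niche table was fitted once over 6 group means. The SE given with an edgeR fold change is its absolute value over the square root of the F statistic. The fits were tested on simulated data, with changes given to genes drawn at random among those past the filter. Of genes changed by 4 on the log2 scale, 98.9% were called in LSK, 100% in EC and 100% in the niche mean. Of genes changed by 2, it was 82.3%, 86.4% and 98.6%, with 11, 8 and 6 false calls. These are not recovery rates for the satellite genes. Alternatives were RLE scaling, no filter, DESeq2 1.42.0, limma voom 3.58.1, the 4-digit label numbers alone, each library left out, and other totals. The sharing of sequence was counted over 31-base words of the vM21 transcripts.

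The satellite genes, the gene lists and the tests were chosen with earlier results of these data known. Named beside the 10 genes were every annotated gene starting within 50 kb of one, the 8 genes most correlated with their sum and the 4 most correlated with a name that is not a predicted one (all among the 8), the 6 genes of smallest p in the heterochromatin list, and every LSK gene past the threshold.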

Additional observations from a re-analysis of the deposited data

Results flagged for a closer look

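Immunoglobulin genes took 10.2% of the gene-assigned reads in Wnt5a LSK library 5, far from the other 4 Wnt5a libraries (0.360 to 1.34%). This is the Wnt5a library whose satellite share (0.258%) lies inside the WT range. It was the 1 distant value among 34 sets of library values examined, and the 95% critical value used has a nominal chance rate of about 1 in 20 groups.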

How the results depend on the processing

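Between Wnt5a and WT LSK libraries, the difference in satellite share was 1.82 percentage points. It stayed positive and within 1 SD of the share, pooled within groups, under the other totals and the 4-digit subset (1.90 to 2.74). The same held with each library left out (1.05 to 2.26). The median log2 fold change of the satellite genes was 3.15 to 4.21 with each library left out. All 144 alternative fold changes of the 9 fitted genes were positive and within 1 SD (1.2) of the reported ones. This SD is that of the log2 summed satellite level, pooled within groups. The genes were picked on this contrast and share sequence, so the common sign was largely fixed in advance and the 144 values are not independent.

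Counts of called genes moved far more. Against 3 genes called in LSK, there were 343 with no filter (where the median log2 fold change of all genes was 0.32), 679 with DESeq2, 882 among the 4-digit libraries, 0 with limma voom, 0 without the satellite genes and their neighbours in the fit, and 0 to 1114 with each library left out. The highest, 1114, was without Wnt5a library 5. There were 16 without Wnt5a library 1, and 0 without any one of Wnt5a libraries 2 to 4 and WT libraries 1 to 4 and 6. The cause was not tested. Of the heterochromatin list, 1 was called with no filter, 5 with DESeq2, 6 among the 4-digit libraries and 0 to 6 with each library left out, the 6 without Wnt5a library 5. With Spearman's rho, 4 of the 8 most alike genes were kept.

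In the niche, the mean difference was 0.00203 to 0.00912 percentage points with each library left out (lowest without OBC Wnt5a library 12, highest without MSC WT library 1), and 0 satellite genes were called under any alternative run (edgeR; 0 or 1 gene tested, 5 with no filter). No paired analysis was run. The labels do not say whether niche libraries of different populations came from the same animal, and the LSK numbers pair no samples. Depth limits the niche values to 1 to 17 UMIs per library.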
